A study of Danio rerio with 24 samples.

Results

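The genes raraa (ENSDARG00000056783), rarab (ENSDARG00000034893), rarga (ENSDARG00000034117) and rargb (ENSDARG00000054003), which encode zebrafish retinoic acid (RA) receptors, and nrip1b (ENSDARG00000068894), which encodes a corepressor of nuclear receptors, were followed across all 24 RNA-seq libraries of the series. These 5 genes were picked by their Ensembl gene IDs from the 33737 gene rows of the count tables. The libraries form 8 groups of 3. Endodermal cells, marked by GFP under the sox17 promoter in the line Tg(sox17:GFP), were sorted after treatment of the embryos with RA, with BMS493 (a pan-RAR inverse agonist) or with DMSO alone. Non-endodermal (NE) cells, which lack GFP, came from DMSO embryos only. Each of the 4 kinds of cells was collected at 3 somites (3-S) and at 8 somites (8-S). The embryos of all groups came from incrosses of this line and grew at 23 degrees, and treatment ran from the 2-cell stage to 3-S. By the study's methods the 8-S embryos were then washed and raised in plain medium, so a stage effect and an effect of the time since wash-out cannot be told apart. The number of embryos per library is not given in the sources used here, and NE cells are a mixture of all tissues that lack GFP.

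RA receptors are transcription factors that bind DNA as heterodimers with retinoid X receptors (RXRs). Without ligand the dimer recruits corepressor complexes, and RA binding exchanges them for coactivators. An inverse agonist such as BMS493 strengthens the corepressor-bound state. The protein encoded by nrip1, known from mammals as RIP140, is unusual among corepressors because it is recruited by nuclear receptors that carry an agonist. In the embryo RA patterns tissues along the anterior-posterior axis, and in zebrafish endoderm it is required for the pancreas field.

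Total gene counts lay between 9971059 and 17806766 per library (median 12791573). The most abundant gene took 15.5% to 32.6% of these counts, so the depth left for other genes was lower. As a check that RA acted, cyp26a1 (ENSDARG00000033999), which encodes an RA-degrading enzyme and is a direct target of RA receptors, had 31478 ± 7705 normalised counts in RA 3-S and 1517 ± 257 in DMSO 3-S cells (SD, n = 3 each). The 3 endoderm markers matched in the tables (foxa2, foxa3 and gata5) were called higher in DMSO endodermal than in NE cells at both stages, and 0 of them were called with RA or BMS493 by DESeq2 or edgeR (0 at an unadjusted p under 0.05 by DESeq2, save 2 with BMS493 at 8-S). A normalised count is a read count divided by the library's size factor (DESeq2, median of ratios). A gene was called when its DESeq2 adjusted p (Benjamini-Hochberg, over all genes tested) was under 0.01. The labels number the replicates without saying that they came from separate clutches, so p-values measure the spread between these libraries only. Reads per gene were not divided by gene length, so levels are compared between groups and not between genes.

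The receptor genes did not respond to RA as one family. At 3-S, RA-treated cells had more raraa reads and fewer rarab, rarga and rargb reads than DMSO cells, and the fall of rarga left it close to the detection limit. With BMS493 nrip1b was lower, and none of the 4 receptor genes was called. At 3-S, 4 of the 5 genes were called between RA and DMSO cells (1 higher, 3 lower), where 4.12% of the 19056 genes tested were called (1.93% higher, 2.2% lower). At 8-S, 3 of the 5 were called (0 higher, 3 lower), against 2.68% of the 17935 genes tested (0.953% higher, 1.72% lower).

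**Figure D1:**
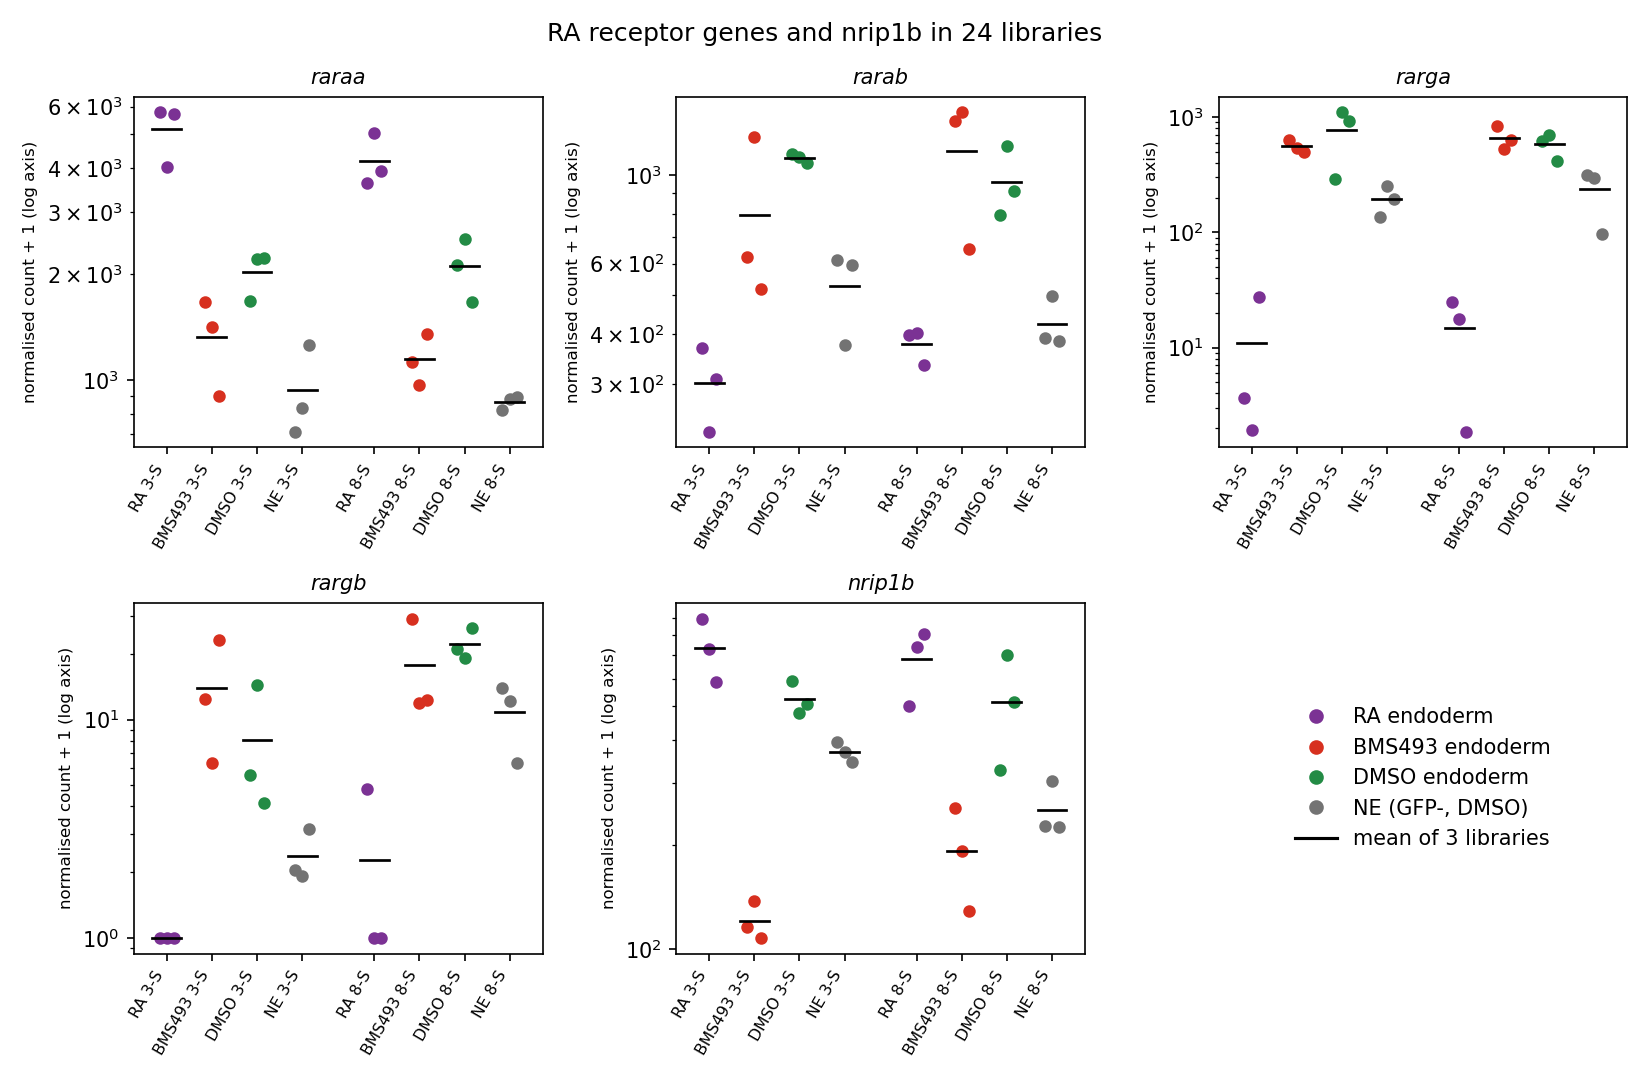
Normalised counts plus 1 (log axis) of the 5 genes in each library, by group, with 3-S groups on the left and 8-S groups on the right of each panel; points are libraries and bars are means of 3. The RA libraries of rarga lie between 0.869 and 26.4 normalised counts, below every other library, and the BMS493 libraries of nrip1b lie between 107 and 253.

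The first of these genes, raraa, encodes a receptor of the alpha type and had the highest values in RA cells. It had 5771, 4029 and 5723 normalised counts in the RA 3-S libraries, against 1674, 2206 and 2220.5 in the DMSO 3-S libraries. It had 3627, 5047 and 3922 in the RA 8-S libraries, against 2129, 2524 and 1663 in the DMSO 8-S libraries. All 6 RA libraries lay above all 6 DMSO libraries. At 3-S the log2 fold change was 1.35 (SE 0.28, DESeq2 adjusted p 6.70e-05), and raraa was called there also with any one of the 6 libraries left out, the highest adjusted p being 0.00258. With only the RA 3-S and DMSO 3-S libraries in the fit the adjusted p was 0.0114. At 8-S the log2 fold change was 0.996 (SE 0.28), which missed the threshold (DESeq2 adjusted p 0.0121). The difference between the RA effects at 8-S and 3-S was -0.35 on the log2 scale (95% interval -1.12 to 0.42) and was not called.

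The second alpha-type gene, rarab, moved in the other direction. It had 368, 227 and 308 normalised counts in RA 3-S libraries, against 1124, 1104 and 1072 in DMSO 3-S libraries. Its 8-S values were 396, 403 and 334 in RA libraries, against 791, 1177 and 909 in DMSO libraries. The RA libraries were the lower ones throughout, with no overlap at either stage. The log2 fold change was -1.87 (SE 0.34, DESeq2 adjusted p 3.68e-06) at 3-S and -1.35 (SE 0.34, DESeq2 adjusted p 0.0037) at 8-S. The 3-S call held in all 6 fits that left out a library, with a highest adjusted p of 4.30e-04. The 8-S call did not: without DMSO 8-S replicate 2 or 3, or RA 8-S replicate 1, 2 or 3, the adjusted p lay between 0.0141 and 0.0735. edgeR gave an adjusted p of 0.0219 at 8-S.

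Apart from rargb, which had too few reads to be ranked, the largest difference with RA was that of rarga, a receptor gene of the gamma type. It had 2.63, 0.931 and 26.4 normalised counts in RA 3-S libraries, against 291, 1096 and 919 in DMSO 3-S libraries. It had 23.9, 16.9 and 0.869 in RA 8-S libraries, against 624, 699.6 and 412 in DMSO 8-S libraries. These were 34 reads in the 3 RA libraries at 3-S and 43 reads at 8-S, against 2259 and 1531 reads in the DMSO libraries of those stages. The log2 fold change was -6.22 (SE 0.73, DESeq2 adjusted p 4.30e-15) at 3-S and -5.39 (SE 0.71, DESeq2 adjusted p 1.05e-11) at 8-S. Both calls held in every alternative run, with highest adjusted p-values of 1.21e-04 and 3.98e-04, but single libraries set the size. Without RA 3-S replicate 3 the 3-S value of rarga was -8.85, and without RA 8-S replicate 1 the 8-S value was -6.05. At the other end of the 6 fits of each stage the values were -5.68 and -4.82. The values in RA libraries spread over more than an order of magnitude within each stage, yet the highest of them, 26.4, was below the lowest NE value of either stage, 95.4. In a bulk library, fewer cells that express a gene and less RNA per cell cannot be told apart.

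The other gamma-type gene, rargb, was measured at a few reads per library, between 0 and 26. It had 0 reads in all 3 RA 3-S libraries, against 4.56, 13.4 and 3.13 normalised counts in DMSO 3-S libraries, 21 reads in all. Set against a floor of 3 reads in each RA library, rargb was at least 2.28-fold lower with RA at 3-S (DESeq2 adjusted p 0.0058). The 8-S libraries had 3.83, 0 and 0 normalised counts with RA, against 20.1, 18.1 and 25.2 with DMSO. These were 4 reads against 58, and the log2 fold change was -4.07 (SE 1.04, DESeq2 adjusted p 0.0037). Per unit of depth the DMSO 8-S libraries held 17.2 times as many rargb reads as the RA 8-S libraries (exact 95% interval 6.37 to 65.2, counting error only). Without RA 8-S replicate 1 the other RA 8-S libraries held 0 reads, and without RA 8-S replicate 3 the log2 fold change was -3.45. At 3-S the adjusted p lay between 0.0248 and 0.0596 without DMSO 3-S replicate 2 or any one of the 3 RA 3-S libraries, and was 0.0164 with edgeR. Counted on each strand alone it was 0.476 (log2 fold change -2.86) and 0.0118, so the 3-S call was lost on both, and DESeq2 gave rargb no adjusted p in a fit of the compared groups alone. At 8-S it lay between 0.0116 and 0.0454 without any one of the 3 DMSO libraries or RA 8-S replicate 2 or 3, and was 0.0277 with edgeR and 0.246 and 0.0145 on each strand alone. Each strand alone holds only part of the rargb reads (76 and 137 of 213 over all libraries), so the runs by strand had less depth.

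The make-up of the receptor reads differed between RA and DMSO cells. Of all reads of the 4 receptor genes, raraa held 94.4% ± 0.35 in RA 3-S cells and 52.2% ± 2.13 in DMSO 3-S cells (SD, n = 3 each). At 8-S it held 91.3% ± 1.56 in RA cells and 57.4% ± 2.24 in DMSO cells. The rarab share was 5.47% ± 0.465 in RA 3-S cells, against 28.9% ± 6.42 in DMSO 3-S cells. The rarga share was 0.167% ± 0.233 in RA 3-S cells, against 18.7% ± 8.16 in DMSO 3-S cells. The highest share of rargb in any library was 1.14%. The summed normalised counts of the 4 genes overlapped between groups, lying between 4257 and 6141 in RA 3-S and between 3094 and 4419 in DMSO 3-S libraries. The shares are shares of reads, not of molecules, since longer transcripts give more reads. They were computed after the changes of single genes were known and were not tested.

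**Figure D2:**
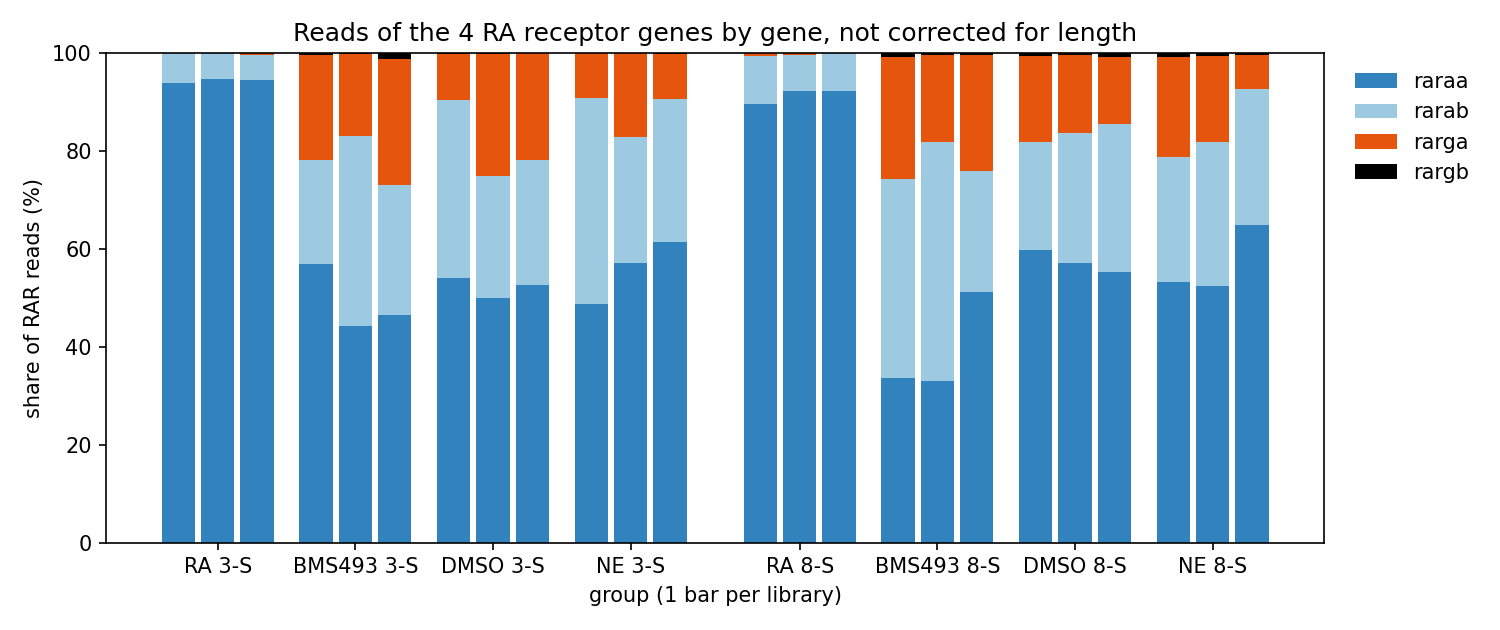
Share of the reads of the 4 RA receptor genes (%) that fell in each gene, with 1 stacked bar per library, not corrected for transcript length. In the 6 RA libraries raraa (dark blue) takes 89.5% or more, while in the other groups rarab (light blue) and rarga (orange) take a large part.

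Some markers of other cells were called lower in RA cells, as rarga was, 1 was called higher at 3-S, and others were not called. The sox17 promoter is also active in the forerunner cells of Kupffer's vesicle, the ciliated organ of left-right patterning. The one marker of that organ in the tables, dand5 (ENSDARG00000036471), had 5.59 to 16.2 normalised counts in RA 3-S libraries, against 169 to 433 in DMSO 3-S libraries. The 8-S range was 3.48 to 16.9 in RA libraries, against 584 to 2432 in DMSO libraries. Of 6 markers of paraxial mesoderm and tailbud, 2 were called lower in RA cells at each stage and 0 higher (DESeq2 and edgeR). At an unadjusted p under 0.05 there were 2 at 3-S and 4 at 8-S with either tool. The median log2 fold change of the 6 markers was -0.94 at 3-S and -2.01 at 8-S. Their summed normalised counts were 46.0 to 102 in RA 3-S libraries, against 839 to 1416 in DMSO 3-S libraries, and 126 to 233 in RA 8-S libraries, against 4150 to 5537 in DMSO 8-S libraries. None of these 6 markers was at 0 throughout a group. The notochord marker noto was called lower at both stages, with 9.20 to 19.6 normalised counts in RA 3-S and 30.0 to 108 in DMSO 3-S libraries, and edgeR called it at 8-S only. Over all 20 markers of tissues other than endoderm, RA cells had 1 called higher and 7 called lower at 3-S, and 0 higher and 5 lower at 8-S (edgeR 0 and 6 at 3-S, 0 and 5 at 8-S). Of the 6 neural markers, 1 was called higher and 1 lower at 3-S (edgeR 0 and 1), and 0 higher and 1 lower at 8-S. At an unadjusted p under 0.05 there were 2 at 3-S and 5 at 8-S (edgeR 2 and 4). The median log2 fold change of the 6 neural markers was 0.08 at 3-S and -0.64 at 8-S. Their summed normalised counts, in which abundant markers weigh most, did not overlap. They were 1067 to 1345 in RA 3-S libraries, against 3239 to 3951 in DMSO 3-S libraries. At 8-S they were 2227 to 3277 with RA, against 5954 to 6952 with DMSO. Among the 3 markers of epidermis and enveloping layer, 1 was called lower at 3-S and 0 at 8-S (DESeq2 and edgeR, with 1 at an unadjusted p under 0.05 at 8-S). The median log2 fold change of these 3 was -1.78 at 3-S and 1.35 at 8-S. Of the 3 markers of blood and endothelium, 1 was called lower at 3-S and 0 at 8-S (DESeq2 and edgeR, with 0 at an unadjusted p under 0.05 at 8-S), and their summed counts overlapped, with 271 to 415 in RA 3-S and 343 to 648 in DMSO 3-S libraries. The median log2 fold change of these 3 blood and endothelium markers was -2.83 at 3-S and -0.04 at 8-S. One of them, gata1a, was at 0 in all RA 3-S libraries and averaged 1.34 normalised counts in DMSO 3-S libraries. Their part in the falls of rarab, rarga and rargb was not tested. With BMS493, 0 of the 20 were called at either stage by DESeq2 (5 at 3-S and 2 at 8-S at an unadjusted p under 0.05), and 0 by edgeR.

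BMS493 was compared with DMSO to ask which genes depend on RA signalling in endoderm. At 3-S, 1 of the 5 was called (0 higher, 1 lower), where 0.173% of 17374 genes tested were called, and at 8-S, 1 of the 5 (0 higher, 1 lower), where 0.387% of 16814 were called (0.00595% higher, 0.381% lower). Both calls were nrip1b. It had 115, 137 and 107 normalised counts in BMS493 3-S libraries, against 592, 476 and 507 in DMSO 3-S libraries. Its 8-S values were 253, 190.2 and 128 in BMS493 libraries, against 327, 703 and 514 in DMSO libraries. The groups did not overlap at either stage, although DMSO 8-S replicate 1 came near the BMS493 range. The log2 fold change was -2.14 (SE 0.31, DESeq2 adjusted p 1.31e-08) at 3-S, and this call held in every alternative, with a highest adjusted p of 0.0016. At 8-S the value was -1.44 (SE 0.31, DESeq2 adjusted p 8.45e-04). Without DMSO 8-S replicate 2 or 3, or BMS493 8-S replicate 2 or 3, the adjusted p at 8-S lay between 0.0116 and 0.0675, and with edgeR it was 0.038. The BMS493 effect did not differ in a called way between the stages (8-S minus 3-S 0.70 on the log2 scale, 95% interval -0.15 to 1.55).

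With RA, nrip1b had 892, 731 and 585 normalised counts at 3-S, against 592, 476 and 507 with DMSO. The 8-S values were 501, 742 and 806 with RA, against 327, 703 and 514 with DMSO. The groups overlapped at both stages. The log2 fold changes of 0.49 (95% interval -0.10 to 1.08, DESeq2 adjusted p 0.48) at 3-S and 0.41 (95% interval -0.18 to 0.999, DESeq2 adjusted p 0.689) at 8-S did not pass the test.

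Its paralogue nrip1a (ENSDARG00000068965), a corepressor gene on the list of partners described further on, was called with both compounds at 3-S. It had 218, 251 and 267 normalised counts in RA 3-S libraries, against 65.7, 65.2 and 56.3 in DMSO 3-S libraries. In BMS493 3-S libraries it had 14.9, 3.18 and 8.66, against the same DMSO values. The log2 fold change was 1.97 (SE 0.53, DESeq2 adjusted p 0.00491) with RA and -2.79 (SE 0.59, DESeq2 adjusted p 0.00177) with BMS493. Both comparisons use the same DMSO libraries. At 8-S nrip1a had 198, 112 and 54.8 in RA libraries, against 23.7, 50.7 and 45.6 in DMSO libraries, and the log2 fold change of 1.60 (SE 0.54) did not pass (DESeq2 adjusted p 0.0639). In BMS493 8-S libraries it had 15.1, 6.37 and 8.6, and -2.02 (SE 0.59) did not pass (DESeq2 adjusted p 0.0774). None of these groups overlapped the DMSO group of its stage. The RA call at 3-S was lost without any one of the 6 libraries (adjusted p 0.0147 to 0.0347) and with edgeR (0.0416). The BMS493 call was lost without DMSO 3-S replicate 1 or 2 or BMS493 3-S replicate 2 or 3 (0.0132 to 0.0415) and with edgeR (0.0652). Without BMS493 3-S replicate 1 the BMS493 value of nrip1a was -3.38, and at the other end of the 6 fits it was -2.40.

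**Figure D3:**
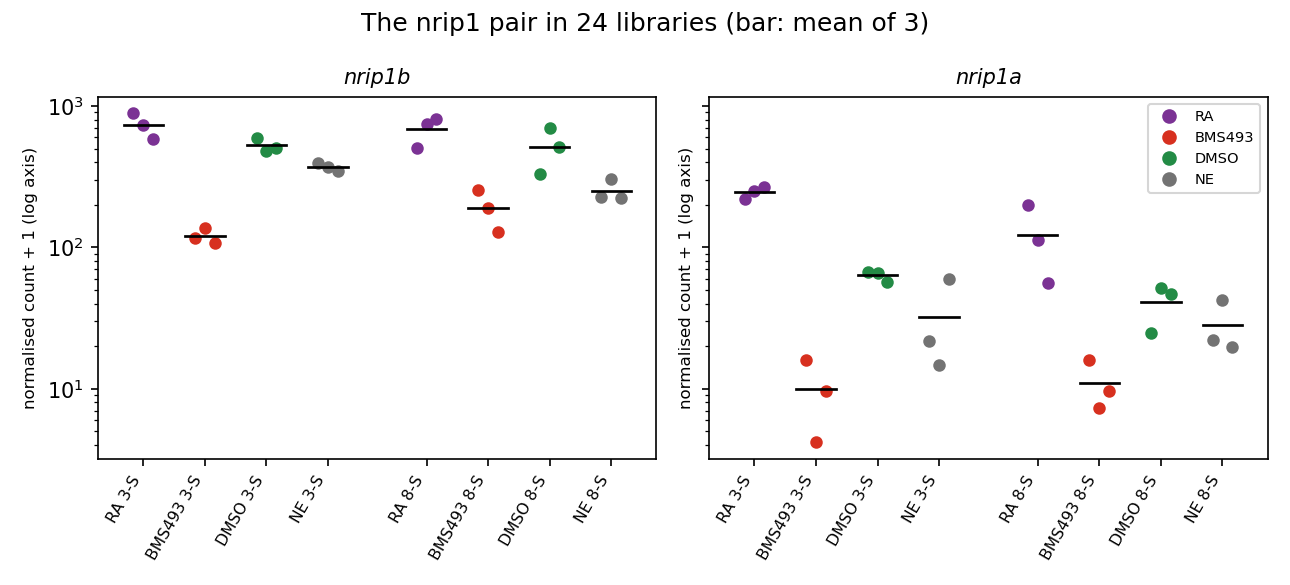
Normalised counts plus 1 (log axis) of nrip1b (left) and its paralogue nrip1a (right) in each library, by group; points are libraries and bars are means of 3. The BMS493 libraries lie below the DMSO libraries of their stage in both panels, and RA and DMSO libraries overlap for nrip1b but not for nrip1a.

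The receptor genes were not called with BMS493. For raraa the libraries did not overlap, with 1664, 1419 and 901 normalised counts in BMS493 3-S and 1674, 2206 and 2220.5 in DMSO 3-S cells. At 8-S it had 1125, 967 and 1354 with BMS493, against 2129, 2524 and 1663 with DMSO. The log2 fold changes were -0.61 (95% interval -1.16 to -0.07, DESeq2 adjusted p 0.679) and -0.87 (95% interval -1.42 to -0.33, DESeq2 adjusted p 0.181). For rarab the values overlapped, at 620.4, 1240.3 and 517 with BMS493 against 1124, 1104 and 1072 with DMSO at 3-S. At 8-S rarab had 1361, 1430.4 and 651 with BMS493, against 791, 1177 and 909 with DMSO. The log2 fold changes of rarab were -0.47 (95% interval -1.14 to 0.19) at 3-S and 0.26 (95% interval -0.41 to 0.93) at 8-S. The libraries treated with BMS493 had 631, 538 and 501 normalised counts of rarga at 3-S and 832, 523 and 627 at 8-S, within the span of the DMSO values at 3-S and overlapping them at 8-S. Its log2 fold changes were -0.47 (95% interval -1.80 to 0.86) and 0.19 (95% interval -1.14 to 1.52). With BMS493 rargb had 11.4, 5.30 and 22.1 normalised counts at 3-S and 28.0, 10.9 and 11.3 at 8-S, and its log2 fold changes of 0.89 (SE 0.82) and -0.35 (SE 0.77) did not pass the test.

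**Figure D4:**
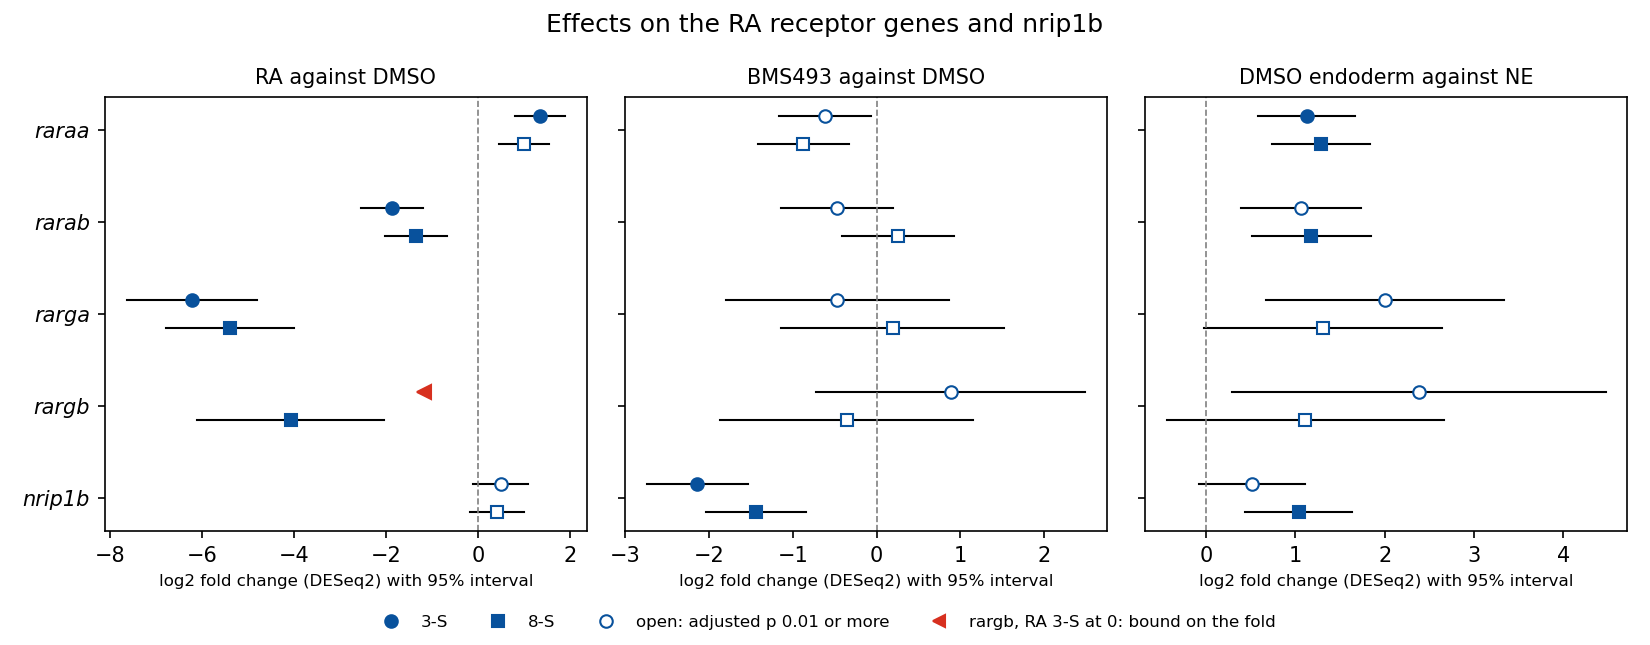
Log2 fold changes (DESeq2) of the 5 genes with 95% intervals for RA against DMSO, BMS493 against DMSO and DMSO endoderm against NE cells, with circles for 3-S and squares for 8-S; filled symbols have an adjusted p under 0.01, and the triangle marks the bound for rargb, which had 0 reads in RA 3-S libraries. RA separates raraa from the other receptor genes, and the filled symbols under BMS493 are those of nrip1b.

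RA and BMS493 cells were also compared directly. All 5 genes were called at both stages, where 5.75% of 19056 genes tested at 3-S (2.94% higher, 2.81% lower) and 5.23% of 18495 at 8-S (2.68% higher, 2.55% lower) were called. In RA cells raraa and nrip1b were the 2 called higher at each stage, and rarab, rarga and rargb the 3 called lower. For nrip1b the log2 fold change was 2.62 (SE 0.31, DESeq2 adjusted p 3.35e-15) at 3-S and 1.85 (SE 0.30, DESeq2 adjusted p 8.77e-08) at 8-S. The raraa value was 1.962 at 3-S and 1.87 at 8-S (SE 0.28 each). The rarga values were -5.76 at 3-S (SE 0.73) and -5.58 at 8-S (SE 0.71). Without RA 3-S replicate 3 the rarga value at 3-S was -8.38, and without RA 8-S replicate 1 the value at 8-S was -6.24. At the other end of the 6 fits of each stage the values were -5.21 and -5.01. The comparison uses the same RA and BMS493 libraries as those with DMSO. The rarab call at 3-S was lost without RA 3-S replicate 2 (adjusted p 0.0202) or BMS493 3-S replicate 2 (0.0762). It was also lost with edgeR (0.0112) and with only the compared groups in the fit. The rargb call at 8-S was lost without RA 8-S replicate 2 or 3 or BMS493 8-S replicate 1 (0.0469 to 0.0705), with edgeR (0.027) and on each strand alone (0.118 and 0.0406). The 8-S call of rargb was lost too without independent filtering, with the replicate block and with only the compared groups in the fit. Its 3-S call was lost on 1 strand (0.0612).

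DMSO endodermal cells were compared with NE cells to ask which of the genes are enriched in endoderm. At 3-S, 1 of the 5 was called (1 higher, 0 lower), where 7.58% of 19616 genes tested were called (4.23% higher, 3.35% lower), and at 8-S, 3 of the 5 (3 higher, 0 lower), where 7.18% of 18495 were called (4.4% higher, 2.78% lower). The endodermal libraries lay above the NE libraries without overlap for all 5 genes at both stages. How many of all genes tested separate in this way was not counted, so no enrichment of the 5 is read from it. For raraa the values were 1674, 2206 and 2220.5 in DMSO 3-S libraries, against 712, 832 and 1255 in NE 3-S libraries. At 8-S they were 2129, 2524 and 1663 in DMSO libraries, against 818, 881 and 894 in NE libraries. The log2 fold change was 1.12 (SE 0.28, DESeq2 adjusted p 0.0011) at 3-S and 1.28 (SE 0.28, DESeq2 adjusted p 1.34e-04) at 8-S. The 3-S call was lost without NE 3-S replicate 1 or 2 or DMSO 3-S replicate 2 or 3 (adjusted p 0.0137 to 0.0219), and the 8-S call held without any one library.

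For rarab the DMSO 3-S values of 1124, 1104 and 1072 stood against 612, 375 and 594 in NE 3-S libraries. Its log2 fold change of 1.06 (SE 0.34) missed the threshold (DESeq2 adjusted p 0.0207). At 8-S its values were 791, 1177 and 909 in DMSO libraries and 390.5, 496 and 384 in NE libraries (log2 fold change 1.18, SE 0.34, DESeq2 adjusted p 0.0082). The nrip1b values were 592, 476 and 507 in DMSO 3-S libraries, against 393, 368 and 345 in NE 3-S libraries (log2 fold change 0.51, DESeq2 adjusted p 0.343). At 8-S nrip1b had 327, 703 and 514 in DMSO libraries, against 225, 305 and 224 in NE libraries, and the log2 fold change was 1.04 (SE 0.30, DESeq2 adjusted p 0.00929). The 8-S calls of rarab and nrip1b sat close to the threshold. For rarab the adjusted p lay between 0.0115 and 0.0939 without any one of the 6 libraries. For nrip1b it lay between 0.0375 and 0.17 without NE 8-S replicate 1 or 3 or DMSO 8-S replicate 2 or 3, and edgeR called neither (0.0185 for rarab, 0.0215 for nrip1b).

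The gamma-type genes were not called in this comparison. For rarga the DMSO libraries had 291, 1096 and 919 normalised counts at 3-S, against 134, 249.7 and 192 in NE libraries (log2 fold change 2.00, SE 0.68, DESeq2 adjusted p 0.0318). At 8-S they had 624, 699.6 and 412, against 314, 294 and 95.4 in NE libraries (log2 fold change 1.304, SE 0.68, DESeq2 adjusted p 0.234). For rargb the values were 4.56, 13.4 and 3.13 in DMSO 3-S and 1.04, 0.918 and 2.14 in NE 3-S libraries, or 20.1, 18.1 and 25.2 in DMSO 8-S and 13.0, 11.2 and 5.35 in NE 8-S libraries. The endoderm effect of the 5 genes did not differ in a called way between stages.

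Changes with stage were asked of each kind of cell. In DMSO endodermal, NE, RA and BMS493 cells alike, 0 of the 5 genes were called between 8-S and 3-S (DESeq2), which gave rargb no adjusted p in BMS493 cells. At an unadjusted p under 0.05 there were 1 in DMSO, 1 in NE, 0 in RA and 1 in BMS493 cells. Few genes were called at all in these comparisons: 0.291% of those tested in DMSO (0.244% higher, 0.0463% lower at 8-S), 0.0141% in NE, 0.0956% in RA (0.0828% higher, 0.0127% lower) and 0.0214% in BMS493 cells (0.00714% higher, 0.0143% lower). edgeR called 0 of the 5 as well, with 0, 1, 1 and 1 at an unadjusted p under 0.05 in the same order of cells. The libraries of rargb did not overlap in DMSO cells, with 4.56, 13.4 and 3.13 normalised counts at 3-S and 20.1, 18.1 and 25.2 at 8-S (8-S over 3-S log2 fold change 1.59, SE 0.81, DESeq2 adjusted p 0.532). In NE cells it had 1.04, 0.918 and 2.14 at 3-S and 13.0, 11.2 and 5.35 at 8-S (log2 fold change 2.86, SE 1.05, DESeq2 adjusted p 0.924). The NE libraries of nrip1b did not overlap either, with 393, 368 and 345 at 3-S and 225, 305 and 224 at 8-S (log2 fold change -0.56, SE 0.30), which did not pass. In BMS493 cells nrip1b had 115, 137 and 107 at 3-S and 253, 190.2 and 128 at 8-S (log2 fold change 0.67, SE 0.31, DESeq2 adjusted p 0.53). The share of reads on one strand was 50.6% to 52.6% in all 3-S libraries and 49.8% to 50.2% in all 8-S libraries, and the part of this difference in the stage comparisons was not tested.

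None of the 3 tests of a stage difference in the RA, BMS493 or endoderm effect called any of the 5 genes (DESeq2, and edgeR likewise), and 0 of the 5 reached an unadjusted p under 0.05 with either tool. In these tests 0.0105% of all genes tested were called for the RA effect, 0% for the BMS493 effect and 0% for the endoderm effect. For rarga the RA effect was 0.83 higher on the log2 scale at 8-S than at 3-S (95% interval -1.16 to 2.83), and for rarab 0.52 higher (95% interval -0.42 to 1.47). With 3 libraries per group the intervals are wide, so a difference between the stages within them is not excluded. The smallest difference that could be detected was not computed.

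Ordered by mean, raraa was highest in RA 3-S (5174 ± 992) and RA 8-S cells (4199 ± 749), then in DMSO 8-S and DMSO 3-S cells, then in BMS493 3-S and BMS493 8-S cells, and lowest in NE 3-S and NE 8-S cells (865 ± 40.9 in NE 8-S, SD, n = 3 each). Breaks without overlap of neighbours lay between the RA and DMSO groups and between DMSO 3-S and BMS493 3-S cells, although the lowest DMSO 8-S library (1663) lay just under the highest BMS493 3-S library (1664). The BMS493 and NE groups overlapped in a chain. The order for rarab ran from BMS493 8-S (1147 ± 432) to RA 3-S (301 ± 70.6), and every group overlapped its neighbour. For rarga the DMSO and BMS493 groups, with means of 556 to 769, formed a chain in which each overlapped its neighbour. DMSO 3-S replicate 1, at 291, lay within the range of NE 8-S libraries. The NE groups came next, with means of 192 (3-S) and 234 (8-S), and the RA groups were lowest, at 9.99 ± 14.2 in RA 3-S and 13.9 ± 11.8 in RA 8-S cells. For nrip1b the RA, DMSO and NE 3-S groups overlapped in a chain from 736 ± 154 in RA 3-S down to 369 ± 24.2 in NE 3-S cells. The NE 8-S (251 ± 46.4) and both BMS493 groups (190.4 ± 62.7 at 8-S and 119 ± 15.6 at 3-S) lay below it. The order of rargb, from DMSO 8-S (21.2 ± 3.66) to RA 3-S, rested on few reads, and it broke only between DMSO 3-S and NE 3-S.

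The partners of the receptors were taken from a list of RXR genes, corepressors and coactivators, of which 26 gene IDs were in the tables and 25 were tested in each of the comparisons with DMSO or NE. With RA at 3-S, 1 of the 25 was called higher and 1 lower, where 1.93% and 2.2% of all genes tested were. With RA at 8-S, 0 were called higher and 1 lower, beside 0.953% and 1.72%. With BMS493 at 3-S, 0 were called higher and 1 lower, beside 0% and 0.173%. With BMS493 at 8-S, 0 were called by DESeq2 (3 at an unadjusted p under 0.05), beside 0.387%, and 0 by edgeR (2 at an unadjusted p under 0.05). In endodermal against NE cells at 3-S, 2 of the 25 were called higher and 0 lower, beside 4.23% and 3.35%. At 8-S, 3 were called higher and 0 lower, beside 4.4% and 2.78%. edgeR called 1 higher and 0 lower at each stage. Calls of 1 to 3 in 25 are too few to set apart from these shares. The median log2 fold change of the list was -0.10 with RA at 3-S, beside 0.02 over all genes tested, and -0.30 with BMS493 at 3-S, beside 0.01. At 8-S it was -0.13 with RA, beside 0.04, and 0.13 with BMS493, beside 0.02. In endodermal against NE cells it was 0.33 at 3-S, beside 0.03, and 0.53 at 8-S, beside -0.11. Of the 9 coactivators, 0 were called in any of these 6 comparisons by DESeq2 or edgeR. At an unadjusted p under 0.05 DESeq2 gave 1 with RA at 3-S and 2 in endodermal against NE cells at 8-S, and edgeR gave 1 and 2 in endodermal against NE cells at 3-S and 8-S.

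Among the RXR genes, rxrgb (ENSDARG00000004697) was called higher in endodermal than in NE cells at both stages. It had 523, 509 and 635 normalised counts in DMSO 3-S libraries, against 59.0, 66.1 and 69.7 in NE 3-S libraries (log2 fold change 3.10, SE 0.30, DESeq2 adjusted p 5.13e-22). At 8-S it had 206, 239 and 251 in DMSO libraries, against 43.9, 62.1 and 53.5 in NE libraries (log2 fold change 2.13, SE 0.31). With RA it was lower at 3-S, with 143, 166 and 257 in RA libraries (log2 fold change -1.55, SE 0.29, DESeq2 adjusted p 5.74e-06). At 8-S it had 217, 154 and 136 with RA, and the log2 fold change of -0.46 (SE 0.29) did not pass. The 3 calls of rxrgb held without any one library.

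One of the genes that share the symbol RXRA, ENSDARG00000057737, had 102, 117 and 56.5 normalised counts in RA 8-S libraries, against 182, 297 and 258 in DMSO 8-S libraries (log2 fold change -1.42, SE 0.37, DESeq2 adjusted p 0.00483). In the NE 8-S libraries it had 125, 113 and 58.9, and the endodermal libraries were higher (log2 fold change 1.32, SE 0.37, DESeq2 adjusted p 0.00561). The RA call of RXRA was lost without DMSO 8-S replicate 2 or 3 or RA 8-S replicate 1 or 3 (adjusted p 0.0121 to 0.0793), and the endoderm call without NE 8-S replicate 2 or 3 or DMSO 8-S replicate 2 or 3 (0.0114 to 0.0731). edgeR called neither (0.0371 and 0.0215).

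**Figure D5:**
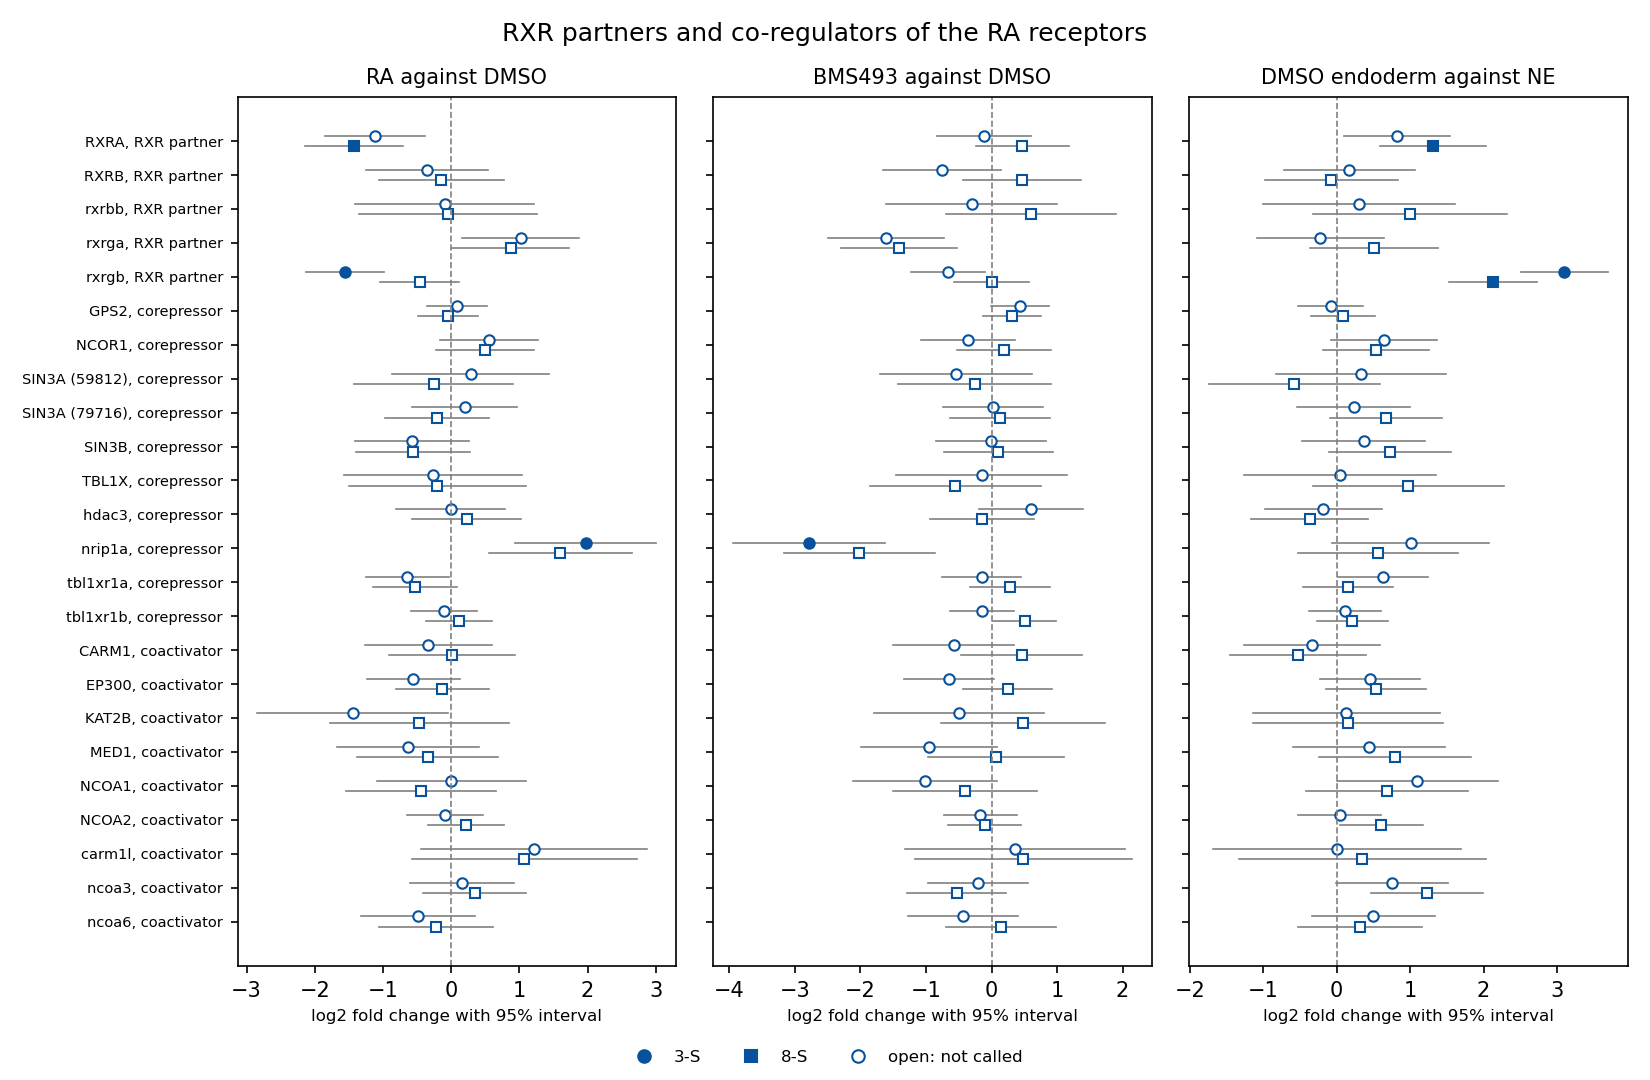
Log2 fold changes (DESeq2) with 95% intervals of 24 RXR, corepressor and coactivator genes for RA against DMSO, BMS493 against DMSO and DMSO endoderm against NE cells, with circles for 3-S and squares for 8-S; filled symbols were called. Most intervals include 0, and the filled symbols are those of nrip1a, rxrgb and RXRA (ENSDARG00000057737).

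Across the 24 libraries, the log2 normalised counts plus 1 of rarga and rargb correlated with r = 0.81, those of rarga and rarab with 0.77, and those of raraa and nrip1b with 0.69. Between raraa and rarga r was -0.65. These values describe libraries that fall into 8 groups and share size factors, and they carry no test. Among 9975 other genes whose mean reached 50 normalised counts (9976 for rargb), the 3 with the highest Pearson r to raraa were gna12a, a G protein alpha subunit gene (r = 0.95), RASGEF1B (0.95) and DLG5 (0.95). To rarab they were EFNA5, an ephrin ligand gene (0.91), CCNJL (0.91) and ENSDARG00000070474 (0.91). Those closest to rarga included ENSDARG00000009905 and the posterior hox gene HOXD11 (ENSDARG00000059267), each at 0.94. To rargb they were the chemokine gene cxcl12b (0.89), enpp1 (0.87) and the posterior hox gene HOXC10 (ENSDARG00000070348, 0.86). To nrip1b they were TSHZ1 (0.92), the anterior hox gene hoxc1a (0.90) and ENSDARG00000054274 (0.90).

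Values at 3-S are given for some of these genes. They were picked for their correlation over these same libraries, so a shared order of groups follows from the choice. HOXD11 had 0 to 0.852 normalised counts in RA 3-S libraries, 485 to 907 in BMS493 3-S, 336 to 764 in DMSO 3-S and 119 to 244 in NE 3-S libraries. As for rarga, the RA libraries were lowest and the NE libraries lay between them and the other groups. The gene hoxc1a had 1143 to 1715 in RA 3-S libraries and 20.2 to 52.0 in BMS493 3-S libraries, against 152 to 277 in DMSO 3-S libraries. As for nrip1b, the RA group had the highest mean and the BMS493 group the lowest. Unlike those of nrip1b, the RA and DMSO libraries of hoxc1a did not overlap. DLG5 had 3111 to 6422 in RA 3-S libraries, 431 to 472 in BMS493 3-S, 828 to 953 in DMSO 3-S and 328 to 463 in NE 3-S libraries.

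In the RefSeq gene table of another zebrafish assembly (GRCz12tu), used here for gene order only, rarga and rargb each overlap a gene of the nr1d4 pair and lie near the hoxc13 gene of their chromosome, with 2 genes between rarga and hoxc13a and 3 between rargb and hoxc13b. The genes raraa and rarab lie on chromosomes that carry hoxb genes, at 294 genes from hoxb8b and 260 genes from hoxb1a, and nrip1b lies between usp25 and samsn1b on a chromosome with 0 hox genes. Counts without strand cannot assign reads of such overlaps. The reads counted on each strand summed exactly to the unstranded count for all 5 genes. The counts thus show no reads set aside for an annotated gene on the other strand. Whether the overlaps exist in the Zv9 annotation was not checked, and one on the same strand would not show here. The levels of rarga and rargb are uncertain to that extent. For rargb, 76 of its 213 reads over all libraries lay on one strand (35.7%), while the other genes had 48.6% to 52.9% there.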

How the data were processed

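By the study's methods, cDNA was made with SMART-seq2 from lysed FACS-sorted cells, and Nextera XT libraries were sequenced single-end. Reads were aligned with STAR (version 2.5.4, per the submitters' processing notes) to the Zv9 genome. The authors deposited raw read counts per gene, neither normalised nor filtered, 1 table per library. The column without strand was used, and the 2 stranded columns as alternatives. Reads in no gene were 14.1% to 25.5% of the reads in each table, and unmapped or multiply mapped reads 7.17% to 11.3%; they stayed out of library sizes. Reads that match several copies of a gene are thus not counted. Replicates of every group differed by more than sampling noise (chi-square per degree of freedom 17.5 to 160.0 in 24 pairs). The floor of 3 counts was 1.68e-05% to 3.01e-05% of a library, and intervals on counts cover counting error only.

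DESeq2 (1.42.0, R 4.3.3), the tool named in the study's methods, was fitted to all 24 libraries with group as the factor, the Wald test and default filtering. edgeR (4.0.16, quasi-likelihood), 2 scalings, a count filter (10 counts in 3 libraries), no independent filtering, the compared groups alone, a replicate block and leaving out each library were the alternatives. The functions were tested on simulated counts. Groups and replicate numbers came from the sample titles. Same-numbered DMSO and NE libraries deviated together (r of 0.53 to 0.73 at 3-S and 0.23 to 0.40 at 8-S). The main fit has no replicate term, so its DMSO against NE values and p-values are unpaired. The replicate numbers entered only in the alternative with a replicate block, as a term common to all 8 groups. Same-numbered DMSO libraries of the 2 stages deviated in opposite directions (r of -0.40 to -0.16). The common term therefore does not pair DMSO with NE libraries within a stage, and no such paired test was run. The 5 genes, the partner list (31 names) and the markers (31 names, 23 in the tables) were chosen with earlier results of these data known. Named were the 5 genes, partners called in any of 6 comparisons, the 3 genes most correlated with each, and cyp26a1; the markers dand5, noto and gata1a, and the match genes given with values, were singled out after their values were seen. Symbols came from a supplied table covering 21939 of 33737 IDs; it writes rarga and rargb alike as RARG, so their names follow the gene IDs. Some genes that this rule would name are not reported here. Sequences, gene lengths and Zv9 coordinates were not used here.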

Additional observations from a re-analysis of the deposited data

How the results depend on the processing

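Of the log2 fold changes recomputed, those called in the report kept their direction in every setting run. Of those not called, 2 changed sign in fits without 1 library and 1 with a stranded column: rarga with BMS493 at 8-S was -0.004 without DMSO 8-S replicate 3 and -0.0106 without BMS493 8-S replicate 1 (-0.01 to 0.35 over the 6 fits), and rargb with BMS493 at 8-S was 0.12 with strand column 3; the cause was not tested. The number of genes called in all changed with the setting too, and is given beside the counts of the 5. The number of the 5 genes called with RA at 3-S was 2 with only the compared groups in the fit, where raraa missed the threshold (adjusted p 0.0114) and rargb had no adjusted p. Of all genes 574 were called there, against 786 in the main fit. With RA at 8-S, 1 of the 5 was called with edgeR, where 260 of all genes were called, against 480 in the main fit. With BMS493 at 8-S the number of the 5 was 0 with edgeR (23 of all genes) and 0 with only the compared groups (70 of all genes). The main fit called 65 of all genes there. In endodermal against NE cells at 3-S the number of the 5 was 2 with strand column 3, 2 with strand column 4 and 3 with only the compared groups. Of all genes 1279, 1283 and 1671 were called in these fits, against 1487 in the main fit. At 8-S the number of the 5 was 1 with edgeR, 1 with total-count size factors and 1 without independent filtering. Of all genes 775, 1197 and 1193 were called, against 1328 in the main fit. With the replicate block in DESeq2 the counts of the 5 were 4 and 3 for RA, 1 and 1 for BMS493 and 1 and 3 for endoderm at 3-S and 8-S. Over all genes they were 812 and 505, 27 and 70, and 1518 and 1395 in the same order. On 1 of the 2 strands alone, calls of nrip1a (adjusted p 0.0165 with RA, 0.0479 with BMS493), RXRA (0.0258 with RA, 0.0126 for endoderm) and nrip1b (0.0235 for endoderm at 8-S) were also lost. In RA against BMS493 at 8-S, where samples share only a number, the block left 4 of 5 calls (989 of all genes called, against 967 in the main fit). edgeR with the replicate block, added after the data were seen, gave 1 for RA at 8-S, 0 for BMS493 at 8-S and 1 for endoderm at 8-S. Over all genes it gave 253, 21 and 765. Leaving out 1 library at a time gave 3 to 4 called with RA at 3-S and 1 to 2 at 8-S, 0 to 1 with BMS493 at 8-S, and 0 to 1 at 3-S and 1 to 2 at 8-S for endoderm. Over all genes these fits called 582 to 678 and 345 to 493 with RA. They called 46 to 67 with BMS493 at 8-S, and 1031 to 1296 and 815 to 1218 for endoderm. Total-count scaling shifted log2 fold changes by -0.11 for RA against DMSO, -0.12 for endoderm and -0.13 for RA against BMS493 at 8-S. For RA 8-S against RA 3-S the shift was -0.17. By strand the rargb share of receptor reads, which rests on 213 reads in all, moved to 0.297% in DMSO 3-S (strand column 4), to 0.0353% and 0.124% in NE 3-S and to 0.332% and 0.945% in NE 8-S (strand columns 3 and 4). Depth limits rargb throughout, and 3 libraries a group limit the rest.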
